A study of Bos taurus with 16 samples.

Results

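Fatty acid metabolism genes were followed in cultured bovine theca interna cells exposed to luteinising hormone (LH) and bone morphogenetic protein 6 (BMP6). The set holds the genes whose symbol in the array annotation begins with ACAD, ACSL, ACSM, ACSS, ACOX, ACOT, HADH, ELOVL, FADS, FABP or PLIN, together with CPT1A, CPT1B, CPT1C, CPT2, SCD, FASN, ACACA and ACLY where the annotation names them. The rule found 50 genes, served by 62 probe sets, among the 9155 genes that the annotation names. For the 11 members with more than 1 probe set, the gene is represented by its brightest probe set, judged by the 16-array mean. Values are log2 signals of the Affymetrix bovine GeneChip, so a difference of 1 is a 2-fold difference, and levels of different probe sets are not set against each other.

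There were 4 groups of 4 arrays. The LH+BMP6 cells received both agents, the BMP6 cells 10 ng/ml BMP6 alone, the LH cells 160 pg/ml LH alone, and the control cells neither. All groups were primary cultures from adult slaughterhouse ovaries, each culture a pool of cells from about 50 follicles of 4 to 6 mm. Wells were kept in serum-free medium for 6 days, and the agents were present for 4 days, from day 3 to day 6. The 4 replicates came from separate batches of ovaries, so the spread between arrays includes that between batches, and no single animal can be followed.

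Cells make fatty acids by turning citrate or acetate into acetyl-CoA, carboxylating it to malonyl-CoA and joining the units into palmitate, which elongases and desaturases then lengthen and unsaturate. Breakdown starts with activation to acyl-CoA, passes through the carnitine shuttle into mitochondria and proceeds there by cycles of dehydrogenation, hydration, oxidation and cleavage. Theca interna cells make androgens from cholesterol, and such steroid-producing cells keep esterified lipid in droplets coated by perilipins.

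Of 7 theca markers, INSL3, LHCGR, STAR, CYP11A1, HSD3B1 and NR5A1 lay above the lower quartile of all probe sets on all 16 arrays, and CYP17A1 fell under it on 2. Their mean log2 signal ranged over 7.19 to 7.97 on LH+BMP6 arrays and 10.27 to 11.42 on LH arrays, and over 7.25 to 7.58 on BMP6 arrays and 9.78 to 10.30 on control arrays. In limma, 7 of 7 were lower in LH+BMP6 than in LH cells and 6 of 7 in BMP6 than in control cells. Of 7 leukocyte markers, 4 were higher in LH+BMP6 than in LH cells (PTPRC, CD68, CD14 and CD3E) and 1 in BMP6 than in control cells (CD14). Their mean signal ranged over 6.57 to 6.91 on LH+BMP6 arrays, 6.36 to 6.88 on BMP6 arrays, 6.01 to 6.41 on LH arrays and 6.20 to 6.35 on control arrays. Of 6 endothelial markers, CLDN5 alone was lower in both comparisons, and no adipocyte, granulosa or red blood cell marker changed. The part of these marker shifts in the results was not tested, and in such bulk RNA fewer cells of a type and less RNA per cell cannot be told apart. Control replicates 1 and 3 and LH replicate 1 had low signals on the 9 hybridisation-control probe sets, at 8.66 to 8.71 against 9.84 to 10.17 on the 13 others.

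Every called change of a fatty acid metabolism gene was in a comparison of BMP6-treated cells with cells without BMP6. In LH+BMP6 against LH cells, 14 members fell and 5 rose, with the largest falls in SCD, FASN, ACLY and ACSS2, which make and desaturate fatty acids, and the largest rises in FABP5, FADS3 and ACOT7. In BMP6 against control cells, 7 members fell and 5 rose, with FASN and PLIN3 the largest falls and FABP5 the largest rise. Changes were modest: of the 31 called changes, 2 reached 2-fold (SCD and FASN, LH+BMP6 against LH), and the smallest called fold was 1.21 (ACOT8).

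A gene was taken as changed at an adjusted p under 0.05 in limma, with Benjamini-Hochberg adjustment over all 24016 probe sets tested. By that rule 12 of 50 members changed in BMP6 against control cells, which is 24.0%, beside 24.8% of all named genes. The members' median difference there was −0.01 and that of all named genes −0.02, so neither value sets the members apart from the rest. In LH+BMP6 against LH cells, 19 of 50 members changed, which is 38.0%, beside 27.2% of all named genes, and the medians were −0.09 for the members and −0.03 for all named genes. By direction, 11.7% of all named genes rose and 15.5% fell in that comparison, and 9.31% rose and 15.5% fell in BMP6 against control cells. The counts by class and list given below rest on few genes each and are to be read beside these shares. With the 3 arrays of weak hybridisation controls left out, 12 members were called in LH+BMP6 against LH cells, beside 19.7% of all named genes, and 6 in BMP6 against control cells, beside 15.8%. Leaving out LH replicate 1 alone gave 12 in the first comparison, beside 20.8% of all named genes. Leaving out control replicate 1 or control replicate 2 gave 7 in the second, beside 18.6% and 19.6% of all named genes.

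The BMP6 comparisons with and without LH share no arrays. Of the members, 10 were called in both, all in the same direction: FASN, PLIN3, HADH, ACSL3, ACADS and ACADVL fell, and FABP5, FADS3, ACSL6 and ACOT9 rose. They make up 83.3% of the calls without LH and 52.6% of those with LH. The same overlap was not computed for all named genes, so it is not shown to be particular to the members. A further 2 members (ACOT8 and ELOVL4) were called only without LH, 9 (ACAD10, ACADM, ACLY, ACOT7, ACSS1, ACSS2, ELOVL6, PLIN2 and SCD) only with LH, and 29 in neither. No interaction of LH and BMP6 was called for any member, so none of these 11 is shown to respond differently with and without LH. In 30 of the 31 called changes the 4 replicate numbers moved the same way, ACOT9 in LH+BMP6 against LH cells being the exception with 3 of 4. The 2 groups compared did not overlap in 25 of the 31. These 31 were selected by the test on the same arrays, so both counts largely follow from that selection and are no further support. Over all 50 members, groups did not overlap for 13 in BMP6 against control cells (30.7% of all named genes) and 20 in LH+BMP6 against LH cells (27.9%).

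**Figure D1:**
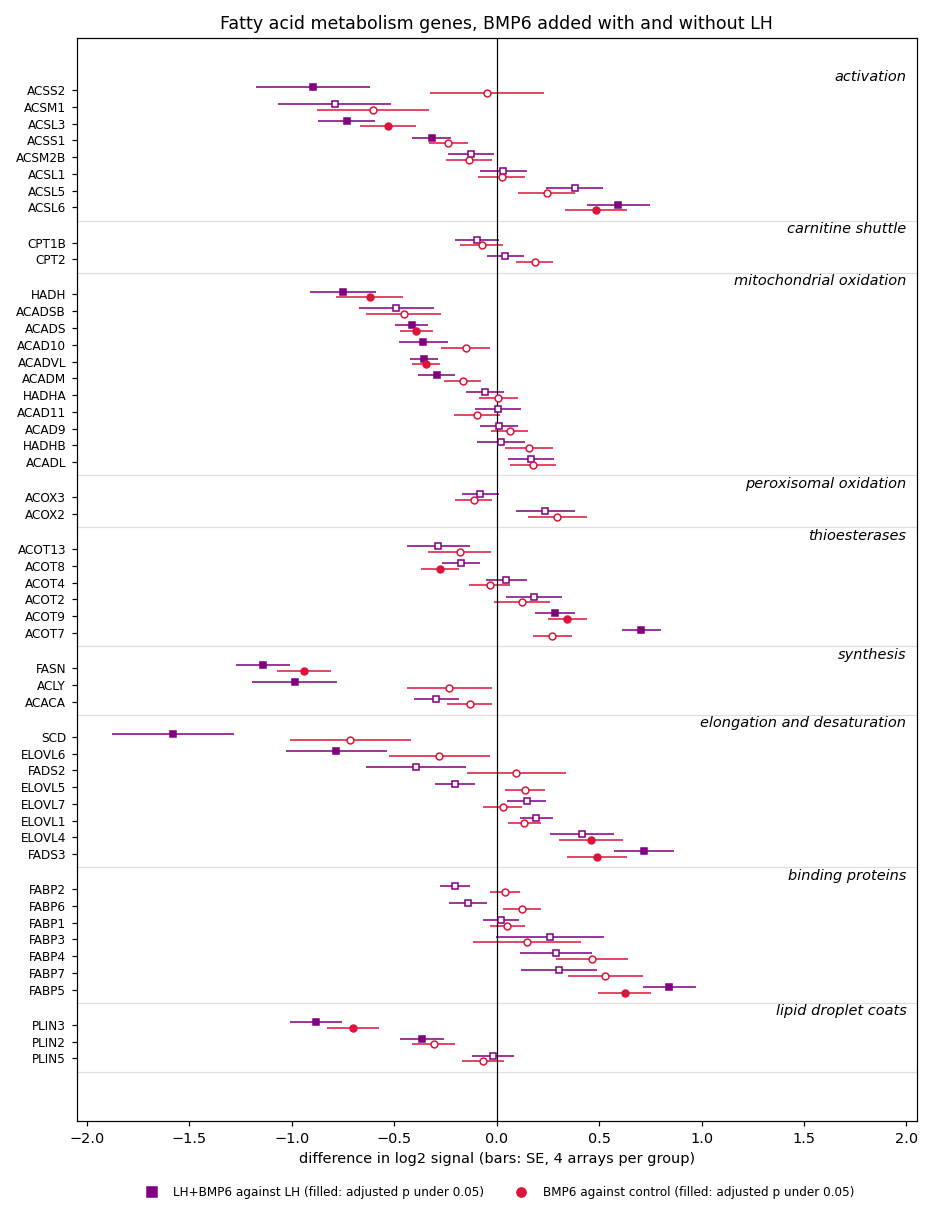
Difference in log2 signal for each of the 50 members, grouped by role, with LH+BMP6 against LH as squares and BMP6 against control as circles; bars are standard errors with 4 arrays per group, and filled symbols passed an adjusted p of 0.05. SCD at −1.58, FASN at −1.14 and ACLY at −0.99 lie farthest to the left and FABP5 at 0.84 farthest to the right, while HADHA at −0.06 and 0.01 and ACSL1 at 0.03 and 0.02 lie beside 0.

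Of the synthesis enzymes, 2 of 3 fell in LH+BMP6 against LH cells (FASN and ACLY) and 1 of 3 in BMP6 against control cells (FASN). FASN (fatty acid synthase, which builds palmitate) had log2 signals of 8.78, 8.73, 8.84 and 8.87 on LH+BMP6 arrays (replicates 1 to 4), against 10.40, 9.91, 9.82 and 9.65 on LH arrays. On BMP6 arrays it had 9.03, 8.68, 8.65 and 8.57, against 9.82, 9.71, 9.48 and 9.69 on control arrays. Every array with BMP6 lay below every array without it. FASN fell by 1.14 ± 0.13 in LH+BMP6 against LH cells (moderated SE; 2.21-fold; adjusted p = 1.37e-05). It fell by 0.94 ± 0.13 in BMP6 against control cells (1.92-fold; adjusted p = 0.000101), and both calls held under every alternative processing tried.

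ACLY (ATP citrate lyase, which turns cytosolic citrate into acetyl-CoA) had 10.79, 10.49, 10.45 and 10.38 on LH+BMP6 arrays, against 12.35, 11.56, 11.01 and 11.14 on LH arrays. It had 10.84, 10.70, 10.32 and 10.41 on BMP6 arrays, against 10.71, 10.97, 10.76 and 10.76 on control arrays. The LH arrays stood above all 12 others, with replicate 1 the highest, while BMP6 and control arrays overlapped. ACLY fell by 0.99 ± 0.21 in LH+BMP6 against LH cells (1.98-fold; adjusted p = 0.0025), and the BMP6 against control difference was −0.23 ± 0.21 (adjusted p = 0.517). The interaction was −0.75 ± 0.29 (adjusted p = 1.0), so the BMP6 difference is not shown to depend on LH.

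ACACA (acetyl-CoA carboxylase alpha, which makes malonyl-CoA) had 6.24, 6.28, 6.14 and 6.29 on LH+BMP6 arrays, against 6.85, 6.49, 6.45 and 6.36 on LH arrays. Its BMP6 arrays gave 6.28, 6.38, 6.06 and 6.25, against 6.36, 6.58, 6.19 and 6.37 on control arrays. The LH+BMP6 and LH arrays did not overlap, but the difference of −0.30 ± 0.11 was not called (adjusted p = 0.0672), nor was the −0.13 ± 0.11 of BMP6 against control (adjusted p = 0.482). Its second probe set gave −0.20 and −0.19 in these comparisons. Leaving out LH replicate 4 (−0.35; adjusted p = 0.0429) or the dim probe sets (0.0457) brought the LH+BMP6 against LH difference past the threshold.

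Among the elongases and desaturases, SCD showed the largest change of any member. SCD (stearoyl-CoA desaturase, which puts a double bond into saturated acyl-CoAs to give oleate and palmitoleate) had 9.98, 9.40, 9.27 and 9.54 on LH+BMP6 arrays, against 12.01, 11.54, 10.40 and 10.55 on LH arrays. On BMP6 arrays it had 10.07, 9.57, 9.18 and 8.91, against 10.07, 10.37, 10.00 and 10.14 on control arrays. LH replicates 1 and 2 were the highest, every LH+BMP6 array lay below every LH array, and BMP6 replicate 1 reached into the control range. SCD fell by 1.58 ± 0.30 in LH+BMP6 against LH cells (2.99-fold; adjusted p = 0.00108), a call kept under every alternative. The BMP6 against control difference was −0.71 ± 0.30 (adjusted p = 0.112), and it passed the threshold without BMP6 replicate 1, at −0.93 (adjusted p = 0.043), and with the arrays compared fitted alone (0.0362). The interaction of −0.87 ± 0.42 was not called (adjusted p = 1.0).

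ELOVL6 (the elongase of palmitate and palmitoleate) had 5.11, 4.25, 4.61 and 4.38 on LH+BMP6 arrays, against 5.98, 5.66, 4.99 and 4.85 on LH arrays. Its BMP6 arrays gave 5.19, 4.48, 4.57 and 4.53, against 4.52, 5.17, 5.26 and 4.94 on control arrays. Replicate 1 was the highest array in all groups except control, where it was the lowest, and both pairs of groups overlapped. ELOVL6 fell by 0.78 ± 0.25 in LH+BMP6 against LH cells (1.72-fold; adjusted p = 0.0327), and the BMP6 against control difference was −0.28 ± 0.25 (adjusted p = 0.513). The call was lost without LH replicate 1, at −0.58 (adjusted p = 0.124), LH replicate 2 (0.0861) or LH+BMP6 replicate 2, 3 or 4 (0.0984, 0.0649 and 0.0812).

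FADS3 moved the other way. FADS3 (a front-end desaturase relative known in human cells for acting on sphingoid bases) had 7.71, 7.72, 7.61 and 7.76 on LH+BMP6 arrays, against 6.69, 7.02, 7.10 and 7.12 on LH arrays. It had 7.33, 7.74, 7.71 and 7.54 on BMP6 arrays, against 6.67, 7.00, 7.50 and 7.19 on control arrays. The LH+BMP6 arrays were all above the LH arrays, whereas control replicate 3 lay above BMP6 replicate 1. FADS3 rose by 0.72 ± 0.14 in LH+BMP6 against LH cells (1.64-fold; adjusted p = 0.00187) and by 0.49 ± 0.14 in BMP6 against control cells (1.40-fold; adjusted p = 0.0253). The second call was lost without control replicate 1 (0.35; adjusted p = 0.0973), control replicate 2 (0.0691) or BMP6 replicate 2, 3 or 4 (0.0719, 0.0695 and 0.0501).

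FADS2 (the delta-6 desaturase of polyunsaturated fatty acid synthesis) was called in neither BMP6 comparison. It had 8.38, 8.52, 8.09 and 7.82 on LH+BMP6 arrays, against 8.94, 9.30, 8.06 and 8.09 on LH arrays, a difference of −0.39 ± 0.24 (adjusted p = 0.298). Its BMP6 arrays gave 8.14, 8.47, 7.81 and 7.70, against 7.67, 8.05, 7.98 and 8.02 on control arrays, a difference of 0.10 ± 0.24 (adjusted p = 0.85). LH replicates 1 and 2 were the highest of the 16 arrays. ELOVL4, an elongase of very-long-chain fatty acids, rose by 0.46 ± 0.16 in BMP6 against control cells (adjusted p = 0.0498), and its LH+BMP6 against LH difference was 0.42 ± 0.16 (adjusted p = 0.0701). Its dimmer probe set was called in neither, at 0.10 and −0.05, and the mean of both was 0.28 and called in BMP6 against control cells. For the brighter one, leaving out control replicate 1, 2 or 4 ended the call (adjusted p of 0.17, 0.0801 and 0.0807), as did leaving out BMP6 replicate 1, 3 or 4 (0.158, 0.0996 and 0.0819). ELOVL1, ELOVL5 and ELOVL7 were not called, with differences of −0.20 to 0.19 over both BMP6 comparisons. In all, 1 of 8 elongases and desaturases rose and 2 fell in LH+BMP6 against LH cells, while 2 rose and 0 fell in BMP6 against control cells.

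**Figure D2:**
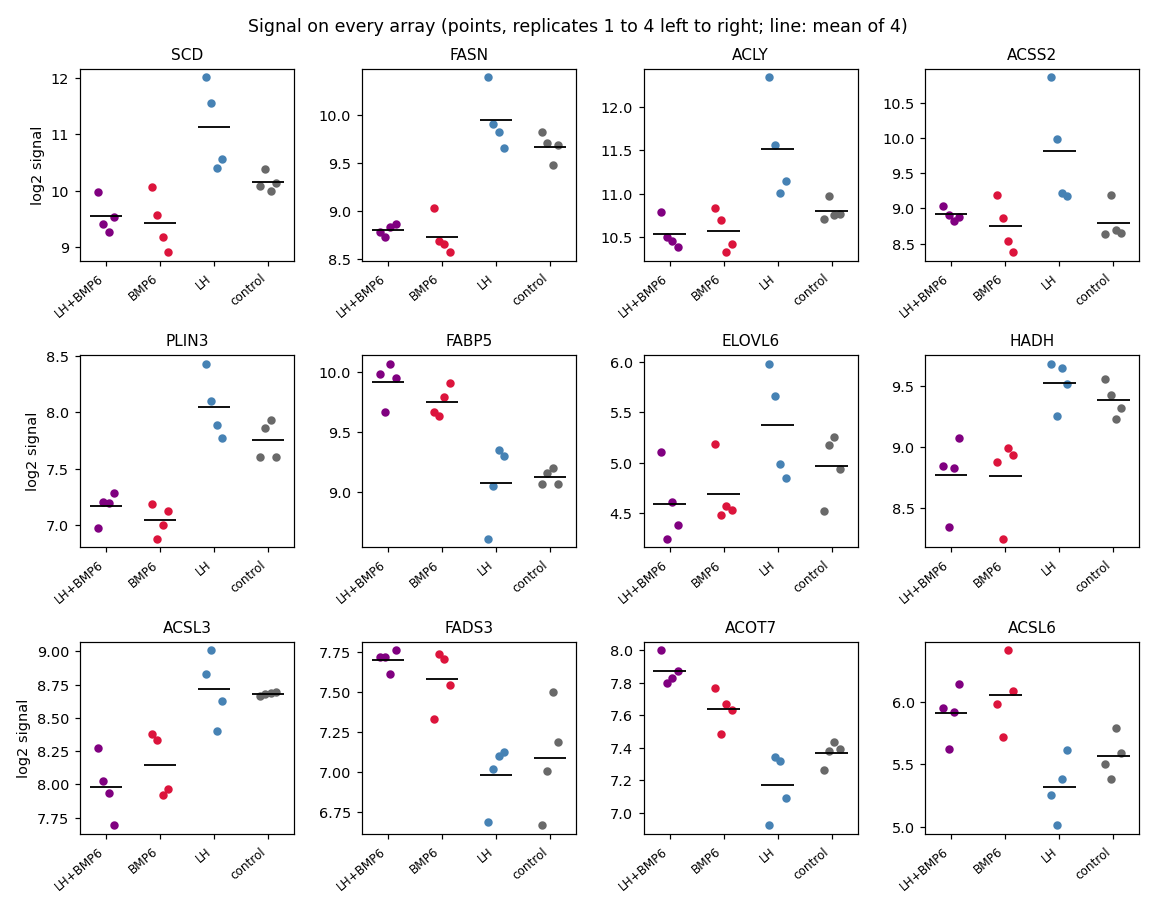
Log2 signal on each of the 16 arrays for the 12 members with the largest called differences, with groups LH+BMP6, BMP6, LH and control from left to right, replicates 1 to 4 in order within a group, and a line at each mean. FASN and PLIN3 on all 8 BMP6-treated arrays lie below all 8 others and FABP5 above them, while SCD, ACLY and ACSS2 reach their highest values on LH replicates 1 and 2 (12.01 and 11.54 for SCD).

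The activating enzymes, which attach coenzyme A to free fatty acids or acetate, moved in both directions. ACSS2 (the cytosolic acetyl-CoA synthetase, which uses acetate) had 9.04, 8.91, 8.82 and 8.88 on LH+BMP6 arrays, against 10.87, 9.98, 9.22 and 9.18 on LH arrays. On BMP6 arrays it had 9.20, 8.87, 8.54 and 8.38, against 8.64, 9.20, 8.69 and 8.65 on control arrays. The 4 LH arrays were above the LH+BMP6 arrays, replicate 1 by the most, and BMP6 and control arrays overlapped. ACSS2 fell by 0.90 ± 0.28 in LH+BMP6 against LH cells (1.86-fold; adjusted p = 0.0286), and the BMP6 against control difference was −0.05 ± 0.28 (adjusted p = 0.941). Without LH replicate 1 the fall was −0.55 and no longer called (adjusted p = 0.0829), and the call was also lost without LH replicate 2 (0.0651) or LH+BMP6 replicate 2, 3 or 4 (0.0561, 0.0702 and 0.0558). The interaction was −0.85 ± 0.39 (adjusted p = 1.0).

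ACSS1, the mitochondrial acetyl-CoA synthetase, fell by 0.32 ± 0.10 in LH+BMP6 against LH cells (1.25-fold; adjusted p = 0.0262), with arrays at 7.92 to 8.03 against 8.16 to 8.40. Its BMP6 against control difference was −0.24 ± 0.10 (adjusted p = 0.105). Its other probe set fell by 0.38 ± 0.08 in LH+BMP6 against LH cells (adjusted p = 0.00205). The first probe set's call was lost without LH replicate 1 (adjusted p = 0.0756), LH replicate 2 (0.0643), LH+BMP6 replicate 3 (0.0551) or LH+BMP6 replicate 4 (0.0631).

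ACSL3 (a long-chain acyl-CoA synthetase of the endoplasmic reticulum and lipid droplets) had 8.27, 8.03, 7.94 and 7.69 on LH+BMP6 arrays, against 8.83, 9.01, 8.40 and 8.62 on LH arrays. It had 8.38, 8.33, 7.92 and 7.96 on BMP6 arrays, against 8.66, 8.68, 8.69 and 8.69 on control arrays. The control arrays were the closest together of the 4 groups, and neither pair of groups overlapped. ACSL3 fell by 0.73 ± 0.14 in LH+BMP6 against LH cells (1.66-fold; adjusted p = 0.00109) and by 0.53 ± 0.14 in BMP6 against control cells (1.45-fold; adjusted p = 0.0117). Its 2 other probe sets differed by −0.71 to −0.55 over both comparisons, and 1 of them passed the threshold in each. With the 3 arrays of weak hybridisation controls left out the BMP6 against control call was lost (adjusted p = 0.0779).

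ACSL6 (a long-chain acyl-CoA synthetase best known from brain) had 5.95, 5.63, 5.92 and 6.14 on LH+BMP6 arrays, against 5.26, 5.01, 5.38 and 5.62 on LH arrays. It had 5.99, 5.72, 6.41 and 6.09 on BMP6 arrays, against 5.50, 5.39, 5.79 and 5.59 on control arrays. LH+BMP6 replicate 2, the lowest of its group, lay just above LH replicate 4, and BMP6 replicate 2 lay below control replicate 3. ACSL6 rose by 0.59 ± 0.15 in LH+BMP6 against LH cells (1.51-fold; adjusted p = 0.0101) and by 0.48 ± 0.15 in BMP6 against control cells (1.40-fold; adjusted p = 0.0351). Leaving out control replicate 1, 2 or 4 ended the second call (adjusted p of 0.0876, 0.107 and 0.0605), and so did leaving out BMP6 replicate 1, 3 or 4 (0.0503, 0.121 and 0.0799).

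ACSL1 (the main long-chain acyl-CoA synthetase of many tissues) ranged over 9.93 to 10.42 on the 16 arrays and differed by 0.03 ± 0.12 in LH+BMP6 against LH cells and 0.02 ± 0.12 in BMP6 against control cells. The 95% intervals were −0.21 to 0.28 and −0.22 to 0.27. ACSL5, ACSM1 and ACSM2B were not called either. ACSM1, under the lower quartile on 14 of 16 arrays, had differences of −0.79 ± 0.27 in LH+BMP6 against LH cells (adjusted p = 0.0506) and −0.60 ± 0.27 in BMP6 against control cells (adjusted p = 0.15). Of the 8 activating enzymes, 1 rose and 3 fell in LH+BMP6 against LH cells, and 1 rose and 1 fell in BMP6 against control cells.

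Of the carnitine palmitoyltransferases in the rule, CPT1B and CPT2 were measured, and neither was called. CPT1A and CPT1C were not among the genes named by the annotation. CPT2 (the inner-membrane carnitine palmitoyltransferase, which reforms acyl-CoA in the matrix) had 9.03, 8.61, 8.94 and 8.91 on LH+BMP6 arrays, against 8.92, 8.80, 8.80 and 8.79 on LH arrays. It had 9.00, 8.73, 9.08 and 8.92 on BMP6 arrays, against 8.80, 8.74, 8.69 and 8.76 on control arrays. Both pairs of groups overlapped, with differences of 0.04 ± 0.09 (adjusted p = 0.803) and 0.19 ± 0.09 (adjusted p = 0.178). CPT1B, the muscle-type outer-membrane enzyme, was under the lower quartile on all 16 arrays.

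Mitochondrial oxidation genes that changed all fell. ACADVL (very-long-chain acyl-CoA dehydrogenase, which starts the oxidation of long chains) had 9.10, 9.02, 8.94 and 8.85 on LH+BMP6 arrays, against 9.37, 9.34, 9.38 and 9.25 on LH arrays. Its BMP6 arrays gave 8.93, 8.96, 8.95 and 8.96, against 9.19, 9.38, 9.36 and 9.23 on control arrays. All 8 BMP6-treated arrays were below all 8 others. ACADVL fell by 0.35 ± 0.07 in LH+BMP6 against LH cells (1.28-fold; adjusted p = 0.0013) and by 0.34 ± 0.07 in BMP6 against control cells (1.27-fold; adjusted p = 0.00184).

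ACADM (medium-chain acyl-CoA dehydrogenase) had 10.02, 9.86, 10.08 and 10.03 on LH+BMP6 arrays, against 10.54, 10.27, 10.19 and 10.16 on LH arrays. It had 10.08, 9.89, 10.07 and 10.21 on BMP6 arrays, against 10.20, 10.38, 10.18 and 10.14 on control arrays. The LH+BMP6 and LH arrays did not overlap, whereas BMP6 replicate 4 lay among the control arrays. ACADM fell by 0.29 ± 0.09 in LH+BMP6 against LH cells (1.23-fold; adjusted p = 0.0282), and the BMP6 against control difference was −0.17 ± 0.09 (adjusted p = 0.239). The call was lost without LH replicate 1, at −0.21 (adjusted p = 0.108), or LH+BMP6 replicate 2 (0.0895).

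ACADS, the short-chain acyl-CoA dehydrogenase, fell by 0.41 ± 0.08 in LH+BMP6 against LH cells (1.33-fold; adjusted p = 0.00138) and by 0.39 ± 0.08 in BMP6 against control cells (1.31-fold; adjusted p = 0.00228). Its arrays ranged over 7.39 to 7.60 in LH+BMP6 against 7.76 to 7.99 in LH cells, and over 7.37 to 7.60 in BMP6 against 7.76 to 7.93 in control cells. ACAD10, a less studied dehydrogenase family member, fell by 0.36 ± 0.12 in LH+BMP6 against LH cells (adjusted p = 0.0425), with −0.15 ± 0.12 in BMP6 against control cells (adjusted p = 0.457). That call was lost without any 1 of LH replicates 1 to 4 or LH+BMP6 replicates 1 and 3 (adjusted p of 0.0514 to 0.138, the highest at −0.23 without LH+BMP6 replicate 1). ACADSB, which acts on branched short chains, was not called at −0.49 ± 0.18 and −0.45 ± 0.18 (adjusted p = 0.0698 and 0.102).

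HADH (the hydroxyacyl-CoA dehydrogenase of short and medium chains) had 8.85, 8.35, 8.83 and 9.08 on LH+BMP6 arrays, against 9.68, 9.26, 9.65 and 9.51 on LH arrays. It had 8.88, 8.25, 8.99 and 8.93 on BMP6 arrays, against 9.56, 9.43, 9.23 and 9.32 on control arrays. Replicate 2 was the lowest array of both BMP6-treated groups, and all 8 BMP6-treated arrays lay below all 8 others. HADH fell by 0.75 ± 0.16 in LH+BMP6 against LH cells (1.68-fold; adjusted p = 0.00307) and by 0.62 ± 0.16 in BMP6 against control cells (1.54-fold; adjusted p = 0.0123; 0.0773 with the 3 arrays of weak hybridisation controls left out).

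The trifunctional protein, which carries out the later steps on long chains, showed no called change in either subunit. HADHA (alpha subunit) had 9.03, 9.03, 9.11 and 9.40 on LH+BMP6 arrays, against 9.31, 9.00, 9.25 and 9.25 on LH arrays. On BMP6 arrays it had 9.06, 9.04, 9.36 and 9.21, against 9.18, 9.13, 9.18 and 9.14 on control arrays. All groups overlapped. The differences were −0.06 ± 0.09 (95% interval −0.26 to 0.14) and 0.01 ± 0.09 (−0.19 to 0.21). HADHB (beta subunit) had 9.85, 9.89, 10.12 and 10.20 on LH+BMP6 arrays and 10.16, 9.75, 10.07 and 10.01 on LH arrays, a difference of 0.02 ± 0.12 (−0.22 to 0.26). It had 9.96, 9.76, 10.24 and 10.27 on BMP6 arrays and 9.80, 9.95, 9.99 and 9.86 on control arrays, a difference of 0.16 ± 0.12 (−0.09 to 0.40).

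ACAD9, ACAD11 and ACADL were not called, with differences of −0.10 to 0.18. In total 5 of 11 mitochondrial oxidation genes fell and 0 rose in LH+BMP6 against LH cells, and 3 fell and 0 rose in BMP6 against control cells. That is 45.5% and 27.3% called, beside 27.2% and 24.8% of all named genes, so the second share is near that of all genes. The peroxisomal acyl-CoA oxidases ACOX2 and ACOX3 were called in neither comparison, with differences of −0.11 to 0.30.

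Thioesterases, which release free fatty acid from acyl-CoA, moved in both directions. ACOT7 (a cytosolic thioesterase active on arachidonoyl-CoA) had 8.00, 7.80, 7.83 and 7.87 on LH+BMP6 arrays, against 6.92, 7.34, 7.32 and 7.09 on LH arrays. It had 7.77, 7.48, 7.67 and 7.63 on BMP6 arrays, against 7.26, 7.38, 7.43 and 7.40 on control arrays. The groups did not overlap in either comparison, and LH replicate 1 was the lowest array. ACOT7 rose by 0.70 ± 0.10 in LH+BMP6 against LH cells (1.63-fold; adjusted p = 6.78e-05), and the BMP6 against control difference was 0.27 ± 0.10 (adjusted p = 0.0587). That difference passed the threshold with dim probe sets left out (0.0388), after quantile normalization (0.0382), with the arrays compared fitted alone (0.0452) and without BMP6 replicate 2 (0.32; 0.0367). Its other probe set rose by 0.48 ± 0.09 in LH+BMP6 against LH cells (adjusted p = 0.00134) and was 0.08 ± 0.09 in BMP6 against control cells. The interaction of 0.43 ± 0.13 was not called (adjusted p = 1.0).

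ACOT9, a mitochondrial thioesterase, rose by 0.35 ± 0.10 in BMP6 against control cells (adjusted p = 0.0193) and by 0.29 ± 0.10 in LH+BMP6 against LH cells (adjusted p = 0.0464). The first of these calls was lost without control replicate 1 (adjusted p = 0.0587), control replicate 2 (0.0543), BMP6 replicate 1 (0.053) or BMP6 replicate 2 (0.0647), and the second without LH replicates 1, 3 or 4 or LH+BMP6 replicates 1, 2 or 3 (0.0669 to 0.134). ACOT8, a peroxisomal thioesterase, fell by 0.28 ± 0.09 in BMP6 against control cells (adjusted p = 0.0494) with a difference of −0.17 ± 0.09 in LH+BMP6 against LH cells (adjusted p = 0.224), and it was not called when any 1 of control replicates 1 to 3 or of BMP6 replicates 1, 3 and 4 was dropped (0.0705 to 0.155). The dimmer ACOT8 probe set was not called in BMP6 against control cells (−0.18 ± 0.14; adjusted p = 0.451), and averaging both probe sets ended the ACOT8 call (0.116). Quantile normalization (0.0593), fitting the arrays compared alone (0.0794) and leaving out the 3 arrays of weak hybridisation controls (0.264) also ended it. ACOT2, ACOT4 and ACOT13 were not called, with differences of −0.29 to 0.18. That makes 2 of 6 thioesterases higher and 0 lower in LH+BMP6 against LH cells, and 1 higher and 1 lower in BMP6 against control cells.

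Of the fatty acid binding proteins, which carry fatty acids through the cytosol, FABP5 alone changed. FABP5 (the epidermal form) had 9.98, 9.67, 10.07 and 9.95 on LH+BMP6 arrays, against 8.61, 9.05, 9.35 and 9.29 on LH arrays. Its BMP6 arrays gave 9.66, 9.63, 9.79 and 9.90, against 9.06, 9.16, 9.20 and 9.06 on control arrays. All 8 BMP6-treated arrays were above all 8 others. FABP5 rose by 0.84 ± 0.13 in LH+BMP6 against LH cells (1.79-fold; adjusted p = 0.000214) and by 0.63 ± 0.13 in BMP6 against control cells (1.54-fold; adjusted p = 0.00253). Its other probe set rose by 1.03 ± 0.16 and 0.77 ± 0.16 (adjusted p = 0.00029 and 0.0031). FABP5 is also expressed by macrophages, and leukocyte markers were also higher with BMP6 (4 of 7 and 1 of 7); their part in this result was not tested.

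FABP3 (the heart form) had 7.69, 8.04, 7.65 and 7.04 on LH+BMP6 arrays, against 6.70, 7.79, 7.38 and 7.51 on LH arrays. It had 7.22, 8.29, 7.26 and 7.06 on BMP6 arrays, against 7.42, 7.55, 7.07 and 7.20 on control arrays. Replicate 2 was the highest array of every group, and the differences were 0.26 ± 0.26 (adjusted p = 0.56) and 0.15 ± 0.26 (adjusted p = 0.776). FABP4 (the adipocyte form) was under the lower quartile on 10 of 16 arrays, with 4.46, 3.98, 4.65 and 4.65 on LH+BMP6 arrays against 4.30, 4.04, 4.35 and 3.90 on LH arrays. It had 4.58, 4.01, 4.93 and 4.55 on BMP6 arrays, against 4.21, 3.93, 4.15 and 3.94 on control arrays. The FABP4 differences of 0.29 ± 0.17 and 0.46 ± 0.17 were not called (adjusted p = 0.289 and 0.0779), although without BMP6 replicate 2 the second was called at 0.63 (adjusted p = 0.011). FABP1 and FABP2, the liver and intestinal forms, lay under the lower quartile on all 16 arrays, FABP6 on 13 and FABP7 on 14.

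Of the lipid droplet coat genes, those of perilipins 2 and 3 changed, and both fell. PLIN3 (perilipin 3, a coat of small and growing droplets) had 6.98, 7.21, 7.20 and 7.28 on LH+BMP6 arrays, against 8.43, 8.10, 7.89 and 7.78 on LH arrays. On BMP6 arrays it had 7.19, 6.88, 7.00 and 7.12, against 7.61, 7.86, 7.94 and 7.61 on control arrays. All 8 BMP6-treated arrays were below all 8 others. PLIN3 fell by 0.88 ± 0.13 in LH+BMP6 against LH cells (1.84-fold; adjusted p = 0.000118) and by 0.70 ± 0.13 in BMP6 against control cells (1.63-fold; adjusted p = 0.000908).

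PLIN2 (perilipin 2, the constitutive droplet coat of many cell types) had 11.33, 11.61, 11.44 and 11.31 on LH+BMP6 arrays, against 11.85, 11.91, 11.73 and 11.65 on LH arrays. It had 11.25, 11.81, 11.33 and 11.32 on BMP6 arrays, against 11.87, 11.69, 11.70 and 11.67 on control arrays. BMP6 replicate 2 was the single BMP6 array within the control range. PLIN2 fell by 0.36 ± 0.11 in LH+BMP6 against LH cells (1.29-fold; adjusted p = 0.0201), and the BMP6 against control difference was −0.31 ± 0.11 (adjusted p = 0.0527). Without BMP6 replicate 2 the BMP6 against control difference was called at −0.43 (adjusted p = 0.00176), as it was with dim probe sets left out (0.0393) and after quantile normalization (0.0348), and the LH+BMP6 call was lost without LH replicate 1 or 2 or LH+BMP6 replicate 1 or 4 (adjusted p of 0.0557 to 0.058). PLIN5, the coat of oxidative tissues, was under the lower quartile on all 16 arrays, so 2 of 3 coats fell in LH+BMP6 against LH cells and 1 of 3 in BMP6 against control cells.

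LH alone changed no member by the same test. In LH against control cells limma called 0 of 50 members, with 8 at an unadjusted p under 0.05, and 2 of 9155 named genes, or 0.0218% (1291 of 24016 probe sets had an unadjusted p under 0.05). The 4 largest differences of the 50 members, none of them called, were those of ACSS2, SCD, ACLY and FADS2. ACSS2 differed by 1.02 ± 0.28 (2.03-fold; adjusted p = 0.622), SCD by 0.98 ± 0.30 (1.97-fold; 0.689), ACLY by 0.71 ± 0.21 (1.64-fold; 0.662) and FADS2 by 0.67 ± 0.24 (1.59-fold; 0.805). The LH and control arrays did not overlap for SCD, ACLY, FADS2 and FABP2, beside 3.05% of all named genes. FABP2 lay under the lower quartile on all 16 arrays. Those of ACSS2 in the LH and control groups overlapped, with control replicate 2 at 9.20. FASN differed by 0.27 ± 0.13, ELOVL6 by 0.40 ± 0.25, ELOVL5 by 0.30 ± 0.10, PLIN3 by 0.30 ± 0.13 and ACACA by 0.16 ± 0.11, with adjusted p of 0.74 to 0.926. The desaturase FADS3 differed by −0.11, and the elongases ELOVL7 and ELOVL1 by −0.08 and 0.0019.

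Single LH arrays moved these uncalled LH differences. Without LH replicate 1 they were 0.67 for ACSS2, 0.69 for SCD, 0.44 for ACLY and 0.55 for FADS2, and FASN, ELOVL6, PLIN3 and ACACA were at 0.12, 0.19, 0.17 and 0.055. Without LH replicate 2, the highest FADS2 array, FADS2 was at 0.43. For the first 4 genes, with the 3 arrays of weak hybridisation controls left out the differences were 0.54 for ACSS2, 0.58 for SCD, 0.37 for ACLY and 0.45 for FADS2. A replicate block kept the full differences of these 4 genes and narrowed their errors to 0.21, 0.20, 0.16 and 0.17. None was called in that fit (adjusted p = 0.275 for ACSS2, SCD and ACLY and 0.294 for FADS2). With BMP6 present, limma called 0 of 50 members in LH+BMP6 against BMP6 cells, with 1 member at an unadjusted p under 0.05, and 0% of all named genes (471 of 24016 probe sets had an unadjusted p under 0.05). The differences there were 0.17 ± 0.28 for ACSS2, 0.11 ± 0.30 for SCD, −0.04 ± 0.21 for ACLY and 0.18 ± 0.24 for FADS2, and the largest of any member was that of ACOT7 at 0.24 ± 0.10 (adjusted p = 1.0). ACOT7 was also the single member whose LH+BMP6 and BMP6 arrays did not overlap, beside 1.75% of all named genes. The interaction, which tests whether the LH difference depended on BMP6, was called for 0 of 50 members and 0% of all named genes. At an unadjusted p under 0.05 were 5 members (ACOT7, ACLY, ELOVL5, ACSS2 and the dim FABP2) and 773 probe sets. The LH against control and LH+BMP6 against LH comparisons share the LH arrays, so a high LH array enters both with opposite sign.

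**Figure D3:**
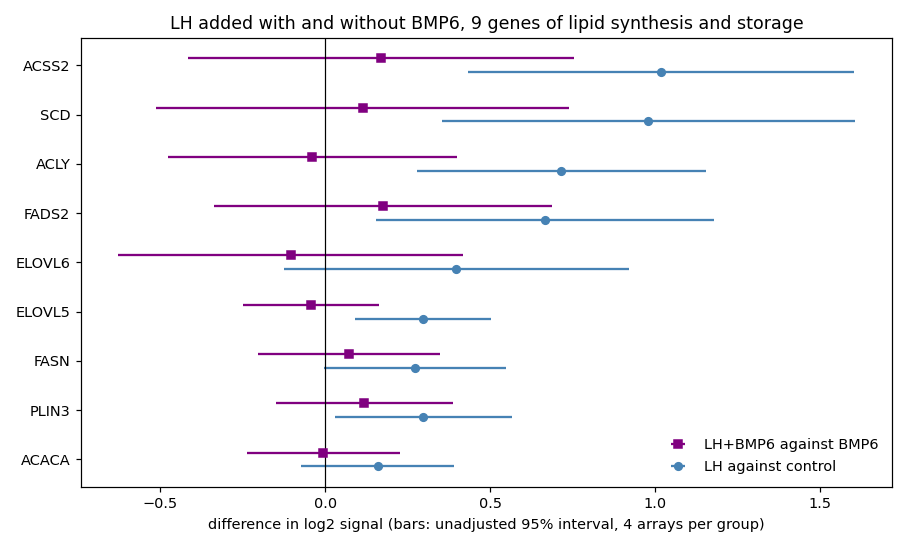
Difference in log2 signal on adding LH for 9 lipid synthesis, desaturation and storage genes chosen after their values were seen, with LH+BMP6 against BMP6 as squares and LH against control as circles; bars are unadjusted 95% intervals with 4 arrays per group. Without BMP6 the points run from 0.16 (ACACA) to 1.02 (ACSS2), and with BMP6 they lie between −0.10 and 0.18 with every interval spanning 0; no difference passed the adjusted threshold.

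Other genes of the pathway moved with BMP6 more often downward than upward, as did all named genes. Of 111 listed genes outside the set, 92 were measured. In LH+BMP6 against LH cells 7 rose and 25 fell, which is 34.8% called beside 27.2% of all named genes, with a median of −0.11. In BMP6 against control cells 5 rose and 22 fell, which is 29.3% beside 24.8%, with a median of −0.08. Of all named genes, 11.7% rose and 15.5% fell in the first comparison, and 9.31% rose and 15.5% fell in the second. The lists were chosen with earlier results of these data known, so these shares are descriptive only.

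Mitochondrial and peroxisomal oxidation partners fell in 10 of 21 cases in LH+BMP6 against LH cells and 11 of 21 in BMP6 against control cells, and CROT alone rose in each. In each comparison 15.5% of all named genes fell. PCCB (a subunit of propionyl-CoA carboxylase, which handles odd-chain products) had 7.12 to 7.71 on LH+BMP6 arrays against 8.82 to 9.41 on LH arrays, and 7.18 to 7.65 on BMP6 arrays against 8.64 to 9.22 on control arrays. It fell by 1.70 ± 0.15 (3.24-fold; adjusted p = 1.01e-06) and 1.54 ± 0.15 (2.90-fold; adjusted p = 2.75e-06). MCEE (methylmalonyl-CoA epimerase, of the same propionate route) fell by 0.87 ± 0.10 and 0.88 ± 0.10. ECHS1, the short-chain enoyl-CoA hydratase that acts just before HADH, fell by 0.82 ± 0.08 in both comparisons (adjusted p = 2.72e-06 and 2.75e-06). ECH1, an isomerase for unsaturated chains, fell by 0.77 ± 0.11 and 0.79 ± 0.11, the first being −0.46 when its probe sets were averaged. CROT (carnitine octanoyltransferase, which exports shortened chains from peroxisomes) rose by 0.43 ± 0.09 and 0.45 ± 0.09 (adjusted p = 0.00232 and 0.00181).

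Of 23 measured genes of uptake, synthesis and elongation, 8 fell in LH+BMP6 against LH cells and 6 in BMP6 against control cells, and 0 rose. That is 34.8% and 26.1% called, beside 27.2% and 24.8% of all named genes. SCD5, a second stearoyl-CoA desaturase, had 9.15 to 9.87 on LH+BMP6 arrays against 11.03 to 11.76 on LH arrays and fell by 1.83 ± 0.15 (3.56-fold; adjusted p = 5.38e-07). It had 9.65 to 9.77 on BMP6 arrays against 10.96 to 11.45 on control arrays and fell by 1.54 ± 0.15 (2.92-fold; adjusted p = 2.75e-06), so unlike SCD it passed the threshold in both comparisons. CYB5R3 (cytochrome b5 reductase, which passes electrons to the desaturases) fell by 1.29 ± 0.12 and 1.38 ± 0.12. TECR (the enoyl reductase of the elongation cycle) fell by 1.05 ± 0.12 and 1.09 ± 0.12. SLC25A1, the mitochondrial citrate exporter upstream of ACLY, fell by 1.02 ± 0.14 and 0.71 ± 0.14 (adjusted p = 5.52e-05 and 0.00144). CD36, a fatty acid translocase that macrophages and endothelial cells also carry, had 8.10 to 10.17 on LH+BMP6 arrays against 6.14 to 8.22 on LH arrays. Its differences of 1.65 ± 0.57 and 1.19 ± 0.57 were not called (adjusted p = 0.051 and 0.176), and the first passed without LH+BMP6 replicate 1 or 2 (adjusted p of 0.0446 and 0.031) or LH replicate 3 or 4 (0.0403 and 0.046), the second without BMP6 replicate 2 (0.0339). The first also passed with dim probe sets left out (0.0428) and with the arrays compared fitted alone (0.0499).

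Of 23 triglyceride synthesis, storage and lipolysis genes, 4 rose and 4 fell in LH+BMP6 against LH cells, and 2 rose and 3 fell in BMP6 against control cells. These are 34.8% and 21.7%, beside 27.2% and 24.8% of all named genes. LPL (lipoprotein lipase, which frees fatty acids from circulating triglyceride) had 11.11 to 11.23 on LH+BMP6 arrays against 9.85 to 10.23 on LH arrays, and 11.04 to 11.38 on BMP6 arrays against 9.17 to 10.20 on control arrays. It rose by 1.09 ± 0.17 (2.12-fold; adjusted p = 0.000271) and 1.40 ± 0.17 (2.64-fold; adjusted p = 3.22e-05). BSCL2 (seipin, needed for droplet formation) rose by 1.24 ± 0.16 and 1.01 ± 0.16, or by 0.48 and 0.37 when its probe sets were averaged (adjusted p = 0.00177 and 0.011). LIPA, the lysosomal acid lipase, rose by 0.58 ± 0.15 in LH+BMP6 against LH cells (adjusted p = 0.0114) with 0.35 ± 0.15 in BMP6 against control cells (adjusted p = 0.135). GPAM (the mitochondrial acyltransferase that starts glycerolipid synthesis) fell by 1.11 ± 0.19 and 1.00 ± 0.19. PNPLA2 (adipose triglyceride lipase) fell by 0.38 ± 0.13 (adjusted p = 0.0464) and 0.55 ± 0.13 (adjusted p = 0.0068), and its LH+BMP6 call was lost on leaving out any 1 of the 8 arrays compared (adjusted p of 0.0513 to 0.138). DGAT2 was not called in either comparison and lay under the lower quartile on 15 of 16 arrays.

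Of 25 regulators, 2 rose and 3 fell in LH+BMP6 against LH cells, and 2 rose and 2 fell in BMP6 against control cells. Both are smaller shares than the 27.2% and 24.8% of all named genes called in these comparisons, so the regulators as a list were not called more often than other genes. SREBF2 and SCAP, a transcription factor and its sterol-sensing escort protein, fell by 0.87 ± 0.15 and 0.79 ± 0.11 in LH+BMP6 against LH cells (adjusted p = 0.000416 and 9.4e-05) and by 0.55 ± 0.15 and 0.87 ± 0.11 in BMP6 against control cells (adjusted p = 0.0129 and 4.63e-05). As means of their probe sets, the SREBF2 differences were −0.51 and −0.30 and those of SCAP −0.32 in both comparisons, all still called. Without control replicate 2 the SREBF2 difference of BMP6 against control cells was −0.46 and was no longer called (adjusted p = 0.0527). INSIG1, which retains SCAP in the endoplasmic reticulum and is itself a sterol-responsive gene, fell by 1.06 ± 0.29 in LH+BMP6 against LH cells (adjusted p = 0.0151; 0.0611 without LH replicate 1) with −0.57 ± 0.29 in BMP6 against control cells (adjusted p = 0.202; −0.83 and 0.0467 without BMP6 replicate 1). SREBF1, the related factor that drives lipogenic genes, was not called at −0.37 ± 0.13 and −0.31 ± 0.13 (adjusted p = 0.0633 and 0.128), and the first passed without LH replicate 3 (0.0443) or 4 (0.0158), with dim probe sets left out (0.0492) and after quantile normalization (0.0474). ANGPTL4, a secreted inhibitor of LPL and a PPAR target, rose by 1.42 ± 0.23 and 1.43 ± 0.23 (2.67-fold and 2.69-fold; adjusted p = 0.000328 and 0.000359). CEBPB, an adipogenic and inflammatory transcription factor, rose by 0.67 ± 0.16 and 0.56 ± 0.16 (adjusted p = 0.00709 and 0.0228), the second of which was not called when control replicate 2, control replicate 4 or BMP6 replicate 2 was dropped (adjusted p of 0.0858, 0.0649 and 0.0812). PPARA and PPARG lay under the lower quartile on all 16 arrays and PPARGC1A on 6, and none of these or PPARD was called.

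**Figure D4:**
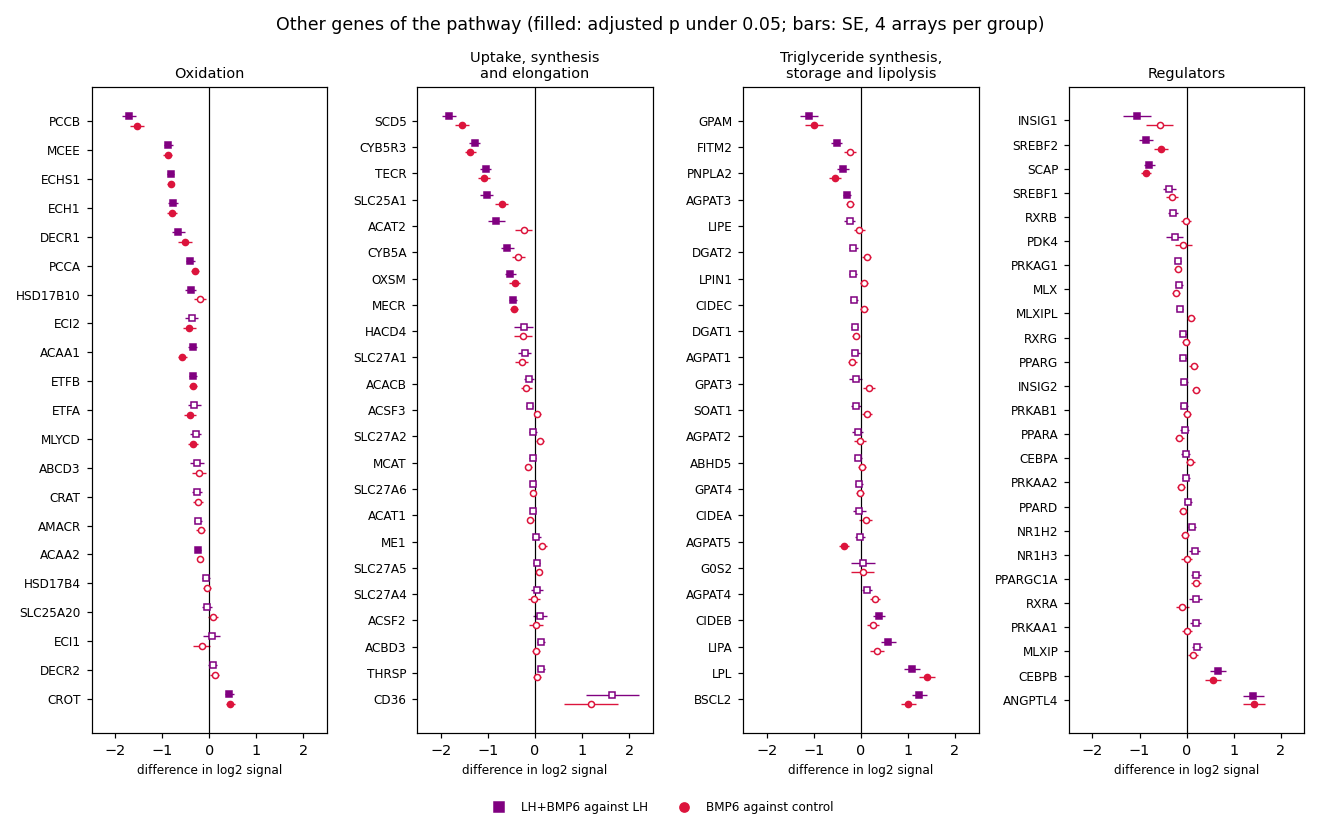
Difference in log2 signal for the 92 measured pathway genes outside the set, in 4 lists, with LH+BMP6 against LH as squares and BMP6 against control as circles; bars are standard errors with 4 arrays per group, and filled symbols passed an adjusted p of 0.05. PCCB, SCD5 and CYB5R3 lie farthest left among the lists of oxidation and of uptake, synthesis and elongation, and ANGPTL4 at 1.42 and 1.43, LPL at 1.09 and 1.40 and BSCL2 at 1.24 and 1.01 stand farthest right among the filled symbols.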

How the data were processed

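RNA from 16 theca cell cultures in 4 groups of 4 was hybridised to single-colour Affymetrix bovine GeneChips. The authors deposited log2 signals summarised by RMA (robust multi-array averaging), with Affymetrix Expression Console as the software, per the submitters' processing notes, which give no version. The values were used as deposited, and 0 value columns were left unused. With no detection calls, a probe set under an array's lower quartile is described as such and not as absent. The number of arrays limits the precision.

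Of 24128 probe sets, 112 Affymetrix controls were left out and 24016 tested, with no filter on signal. The platform annotation from GEO named 1 symbol for 13292 of them, several for 86 and none for 10638. The last 2 kinds were given no gene name. Entrez identifiers matched RefSeq genes for 13263 probe sets and changed 0 symbols.

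limma 3.58.1 in R 4.3.3 fitted 4 group means over all 16 arrays without a replicate term (lmFit, then eBayes with a mean-variance trend). It gave 5 comparisons, the interaction being the BMP6 difference with LH minus that without LH. Errors are moderated standard errors. The percentage of all named genes called uses 1 probe set per gene. The fit was tested on simulated data before use. The members and gene lists were chosen with earlier results of these data known. Named with values on every array or by range are the 12 members with the largest called differences and the measured members of a fixed set of 17 well-known enzymes. Other called members, up to 4 called genes of each pathway list per BMP6 comparison and 8 fixed regulators and lipid genes are named by their difference. CROT, and the members not called, were named besides these after their values were seen. No sequence or genome position is given. Alternatives were eBayes without the trend, a replicate block, leaving out probe sets with a mean under the 40th percentile, fitting the arrays compared alone, quantile normalization, the mean of a gene's probe sets, and leaving out each array in turn or the 3 arrays of weak hybridisation controls. Figures were drawn with matplotlib 3.10.9.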

Additional observations from a re-analysis of the deposited data

Results flagged for a closer look

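In 7 of the 92 sets of 4 arrays examined for the 23 members described in full, 1 array stood far from the 3 others, with a gap above Dixon's 95% critical value for its share of the range. Chance flags about 1 in 20 such sets. PLIN2 was at 11.81 on BMP6 replicate 2, against 11.25 to 11.33 on the other BMP6 arrays, and at 11.87 on control replicate 1, against 11.67 to 11.70. FABP3 was at 8.29 on BMP6 replicate 2, against 7.06 to 7.26. HADH was at 8.25 on BMP6 replicate 2, against 8.88 to 8.99, so 3 of the 7 fell on that array. ELOVL6 was at 5.19 on BMP6 replicate 1, against 4.48 to 4.57. ACSS2 was at 9.20 on control replicate 2, against 8.64 to 8.69, and CPT2 was at 8.92 on LH replicate 1, against 8.79 to 8.80.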

How the results depend on the processing

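Of the 31 called changes of members, 17 held under every alternative: ACADS, ACADVL, FABP5, FASN and PLIN3 in both BMP6 comparisons, and ACLY, ACOT7, ACSL3, ACSL6, FADS3, HADH and SCD in LH+BMP6 against LH cells. The other 14 were lost under at least 1 alternative. The number of members called fell to 6 (BMP6 against control) and 12 (LH+BMP6 against LH) with the 3 arrays of weak hybridisation controls left out (2 control arrays and 3 LH arrays remain), beside 15.8% and 19.7% of all named genes. With 1 array left out at a time it ranged over 7 to 15 and 12 to 19, beside 18.6% to 23.3% and 20.8% to 26.9% of all named genes. No setting called a member for LH against control, LH+BMP6 against BMP6 or the interaction. With the replicate number as a block, 18 and 24 members were called, beside 29.5% and 31.5% of all named genes. The design text says that the experiment was run on different batches of ovaries, without saying that same-numbered arrays share one. Deviations of same-numbered arrays had a mean correlation of 0.38 (0.0778 to 0.688) for LH+BMP6 and BMP6, 0.196 (0.0858 to 0.269) for LH+BMP6 and LH, 0.156 (0.0239 to 0.319) for LH and control and 0.0376 (−0.111 to 0.149) for BMP6 and control, against −0.124 to −0.0115 for other numbers. Each comparison held a pair under 0.1, and the main fit did not take the numbers as pairs. A low pair does not show that the numbers are unpaired, and the same-number mean was above 0 in every comparison. Deviations were taken from group means, so a positive same-number mean brings a negative mean for other numbers, which adds no separate evidence. In the same order, 5, 7, 5 and 4 of 8 arrays correlated best with their own number. If same-numbered arrays do share a batch, the errors of the fit without a block are too wide. Its uncalled results are therefore not shown to be unchanged. The block brought PLIN2, SCD and FABP4 past the threshold in BMP6 against control cells (adjusted p of 0.0175, 0.019 and 0.0123) and ACACA in LH+BMP6 against LH cells (0.037). Of genes outside the set, it brought in CD36 and SREBF1 in LH+BMP6 against LH cells (0.00146 and 0.0161) and CD36, SREBF1 and LIPA in BMP6 against control cells (0.0144, 0.0421 and 0.022). Of the 39 uncalled differences of members followed through the alternatives, 5 were called under at least 1: ACOT7, FABP4, PLIN2 and SCD in BMP6 against control cells and ACACA in LH+BMP6 against LH cells.

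Differences whose sign turned were all small and not called. With those 3 arrays left out they were −0.0082 for FADS2 in BMP6 against control cells, −0.045 for ACACA in LH against control cells and −0.026 for PPARD in LH+BMP6 against LH cells, and PPARD was at −0.0073 as the mean of its probe sets. With 1 array left out, values ranged in BMP6 against control cells over −0.060 to 0.10 for ACSL1, −0.20 to 0.086 for ACSS2, −0.13 to 0.28 for FABP3, −0.050 to 0.21 for FADS2 and −0.057 to 0.049 for HADHA. In LH+BMP6 against LH cells they ranged over −0.030 to 0.12 for ACSL1, −0.0092 to 0.13 for CPT2, −0.063 to 0.075 for HADHB, −0.11 to 0.041 for PPARA and −0.026 to 0.087 for PPARD, and in LH+BMP6 against BMP6 cells over −0.13 to 0.050 for ACLY and −0.060 to 0.33 for SCD. The cause of these shifts was not tested.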
